A study of Macaca mulatta with 21 samples.

Results

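Messenger RNA of the cloned rhesus macaque stem cell line CRES-3 was compared with that of the induced pluripotent line RiPS3 on Affymetrix rhesus expression arrays, with 3 arrays for each line. Values are log2 intensities of probe sets, groups of short oligonucleotides that read the same transcript. The members of the comparison were the probe sets that carry 1 gene symbol and reached log2 5, close to background, on at least 3 of these 6 arrays. They numbered 16819 of the 52865 probe sets on the array and covered 10408 genes. Probe sets without a symbol are no members; of 10416 of them at this level, 32 were called by the rule given below (0.307%), 8 higher in CRES-3 (0.0768%), and these are described at the end. Of the members, 15560 reached log2 5 on all 6 arrays. At the edge of the rule, 370 members reached it on exactly 3 arrays and 406 probe sets with 1 symbol were left out with 2. A member bright in 1 line alone could pass through that line: 40 reached the level on the 3 RiPS3 arrays only and 29 on the 3 CRES-3 arrays only.

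CRES-3 is a female embryonic stem cell line from a blastocyst made by nuclear transfer, per the labels. RiPS3 was made from skin fibroblasts of a female aged 8 years with retroviral vectors for OCT4, SOX2, Klf4 and cMYC. Both were grown in serum on mouse embryonic fibroblast feeders, and RNA came from colonies of undifferentiated look that were picked by hand. The design text speaks of cloned and induced lines made from fibroblasts of the same monkey, but the label of CRES-3 names no donor. The series holds 21 arrays of 7 lines. The others are the male cloned line CRES-1, RiPS1 from male fetal fibroblasts, RiPS2 from a female aged 10 years, the male embryo-derived line ORMES23 and skin fibroblasts of a female aged 8 years, all with the same feeders. The labels call arrays A, B and C of a line biological replicates. Each line is a single derivation, so the route of reprogramming, the line and its donor cannot be told apart, and the tests measure only the spread between arrays.

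In nuclear transfer a somatic nucleus is placed in an egg from which its own chromosomes have been removed, and factors of the egg reset it while the egg supplies most mitochondria of the embryo. In induced pluripotency, added transcription factors switch on the pluripotency network from within the somatic cell, and the retroviral copies are usually silenced afterwards. Both routes give cells that renew themselves, hold POU5F1, SOX2 and NANOG and can form mesoderm, endoderm and ectoderm. Cultures of such cells usually contain some cells that have begun to differentiate.

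Medians of all probe sets lay between log2 5.05 and 5.14 on the 6 arrays. The signal of the 3′ control probe set minus that of the 5′ one, a sign of RNA quality, ran from log2 0.47 to 0.93 for GAPDH and from 0.58 to 2.17 for actin. The lowest values of both were on CRES-3 A and the highest on CRES-3 C. The 5 measured markers of fibroblasts or feeders, of 10 listed, had summed intensities of 1553 to 2468 in CRES-3 and 2316 to 2852 in RiPS3. The sums were 646 to 737 against 803 to 1018 for 6 endothelial markers, 187 to 214 against 186 to 210 for 4 blood markers, and 1622 to 1862 against 1565 to 2171 for 7 neuronal ones. None of these markers was called different between the lines, and their part in the results was not tested.

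The lines differed little over the members as a whole. The mean absolute difference between their line means was log2 0.18 over the members, the smallest of the 15 pairs of pluripotent lines. The next pair, ORMES23 and RiPS2, stood at 0.21 and CRES-1 and RiPS1 at 0.28. Members were chosen by their level in CRES-3 and RiPS3 alone, so probe sets bright only in other lines do not enter this ranking. Of the 16819 members, 15936 differed by less than log2 0.5, and the 95% confidence interval of the difference lay wholly between -1 and 1 for 15335 of them, or 91.2%. The interval lay within -0.5 to 0.5 for 8265. A CRES-3 array differed from an RiPS3 array by 0.22 to 0.29 on this scale. Arrays within CRES-3 differed by about 0.20 and arrays within RiPS3 by 0.26 to 0.30, so RiPS3 varied within itself as much as it differed from CRES-3. The SD over 3 arrays had a median of 0.13 in CRES-3 and 0.18 in RiPS3, and it was larger in RiPS3 for 65.0% of members.

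**Figure D1:**
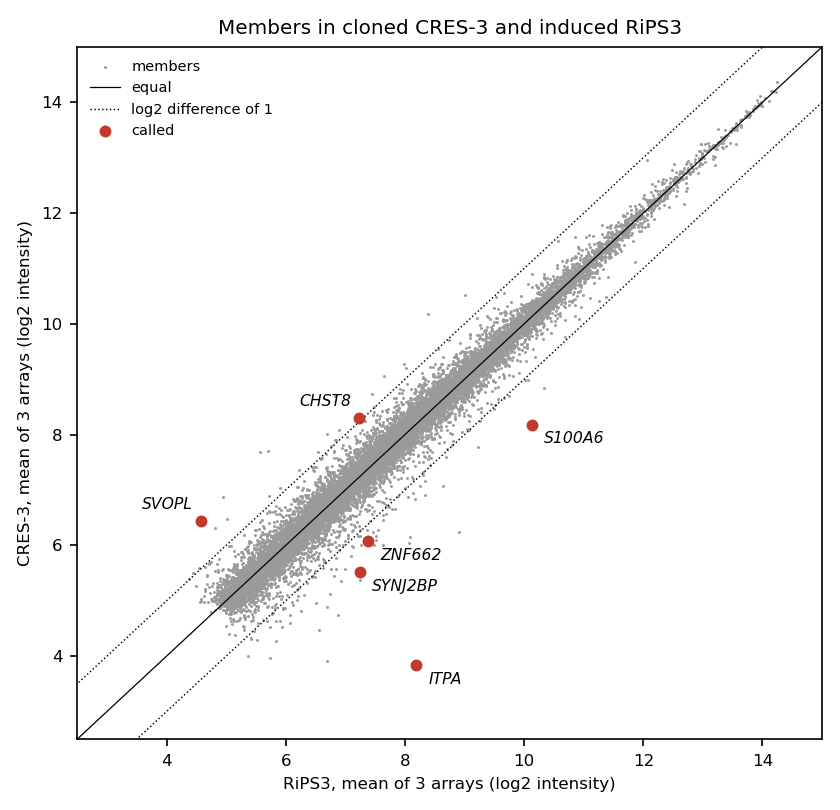
Mean log2 intensity of each of the 16819 members in RiPS3 (horizontal axis) and CRES-3 (vertical axis), 3 arrays each, with dotted lines at a log2 difference of 1. The 6 called members are red and named. Most other members lie near the line of equality, and some uncalled ones lie beyond the dotted lines.

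A member was called different where limma's adjusted p was under 0.05 and the log2 difference, CRES-3 minus RiPS3, was at least 1 in size. This held for 6 members, or 0.0357% of those tested: ITPA, S100A6, SYNJ2BP and ZNF662 were lower in CRES-3 (0.0238%) and SVOPL and CHST8 were higher (0.0119%). A log2 difference of at least 1, whatever its p, was seen in 115 members (0.684%), 27 higher and 88 lower in CRES-3. An unadjusted p under 0.05 was reached by 1285 (7.64%), of which 764 were higher in CRES-3. The 3 arrays of a line did not overlap with those of the other for 2683 (16.0%).

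The largest difference was in ITPA, the inosine triphosphatase that removes faulty purine nucleotides from the cell's pool, on chromosome 10. Its values were 4.45, 3.58 and 3.50 on CRES-3 arrays A, B and C and 8.42, 8.14 and 8.01 on those of RiPS3. All CRES-3 arrays were below log2 5 and all RiPS3 arrays far above it. This probe set of ITPA thus read at least 9.11-fold lower in CRES-3, with a log2 difference of -4.35 (SE 0.70, limma adjusted p = 0.0138). The other probe set of ITPA was the brighter 1 over the 6 arrays. It read 5.92, 6.33 and 6.55 in CRES-3, above log2 5, and 7.73, 7.33 and 7.56 in RiPS3. It gave a smaller difference, -1.28 (SE 0.26, adjusted p = 0.101), in the same direction and uncalled. The bound therefore belongs to 1 of the probe sets. On the called probe set, ITPA was not steady in the other lines either. CRES-1 read 3.98, 3.42 and 3.19, as low as CRES-3, and RiPS1 8.42, 8.71 and 8.48. The ORMES23 arrays read 4.41, 8.23 and 8.00, so 1 of the 3 was as low as the cloned lines, and RiPS2 read 5.90, 7.40 and 8.02.

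S100A6, or calcyclin, a calcium-binding protein abundant in fibroblasts, read 8.24, 7.60 and 8.70 in CRES-3 and 10.30, 9.87 and 10.20 in RiPS3. It was 3.85-fold lower in CRES-3, a log2 difference of -1.94 (SE 0.31, adjusted p = 0.0138), and every CRES-3 array was below every RiPS3 array. CRES-3 had the lowest mean of the 6 pluripotent lines. The other probe set of S100A6 differed by -0.14 only (SE 0.41), and there the arrays overlapped. SYNJ2BP encodes a protein of the outer mitochondrial membrane, from chromosome 7. It read 5.05, 5.56 and 5.94 in CRES-3 against 7.40, 7.37 and 6.94 in RiPS3, a difference of -1.72 (SE 0.24, adjusted p = 0.00931) or 3.30-fold. The other pluripotent lines averaged 7.20 to 7.48, with RiPS3. A brighter probe set of SYNJ2BP pointed the other way, by 0.26 (SE 0.15), with every CRES-3 array but 1 above all RiPS3 arrays. The call for SYNJ2BP thus belongs to 1 of its probe sets and not to the gene as a whole.

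ZNF662, a zinc finger gene on chromosome 2 with a single member probe set, read 6.52, 5.88 and 5.83 in CRES-3 and 7.58, 7.25 and 7.31 in RiPS3. Its difference was -1.30 (SE 0.18, adjusted p = 0.00931), 2.47-fold lower in CRES-3, and the arrays did not overlap. The other 4 pluripotent lines averaged 7.41 to 7.81, so CRES-3 was the low line here too.

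Of the 2 members higher in CRES-3, SVOPL encodes a membrane transporter related to the synaptic vesicle protein SVOP. It read 7.01, 6.03 and 6.25 in CRES-3, while RiPS3 stayed under log2 5 at 4.92, 4.31 and 4.51. The log2 difference was 1.85 (SE 0.29, adjusted p = 0.0136), at least 2.69-fold. The other measured genes of this transporter group showed smaller differences, none called: SV2A 0.52 (SE 0.22), SV2B 0.50 (SE 0.32) and SVOP 0.40 (SE 0.18), all with CRES-3 above RiPS3 on every array, and SLC22A5 -0.11 (SE 0.27).

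CHST8, a sulfotransferase that adds sulfate to N-acetylgalactosamine on glycoproteins, read 8.46, 8.49 and 7.94 in CRES-3 and 7.36, 7.04 and 7.29 in RiPS3. It was 2.10-fold higher in CRES-3, a log2 difference of 1.07 (SE 0.17, adjusted p = 0.0138), with no overlap between arrays. Of the 20 sulfotransferase genes measured, CHST8 was the 1 called; 11 were higher and 9 lower in CRES-3, with a median of 0.03. CHST1 (-0.61, SE 0.30) and CHST14 (-0.47, SE 0.15) were the largest in the other direction and were not called.

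**Figure D2:**
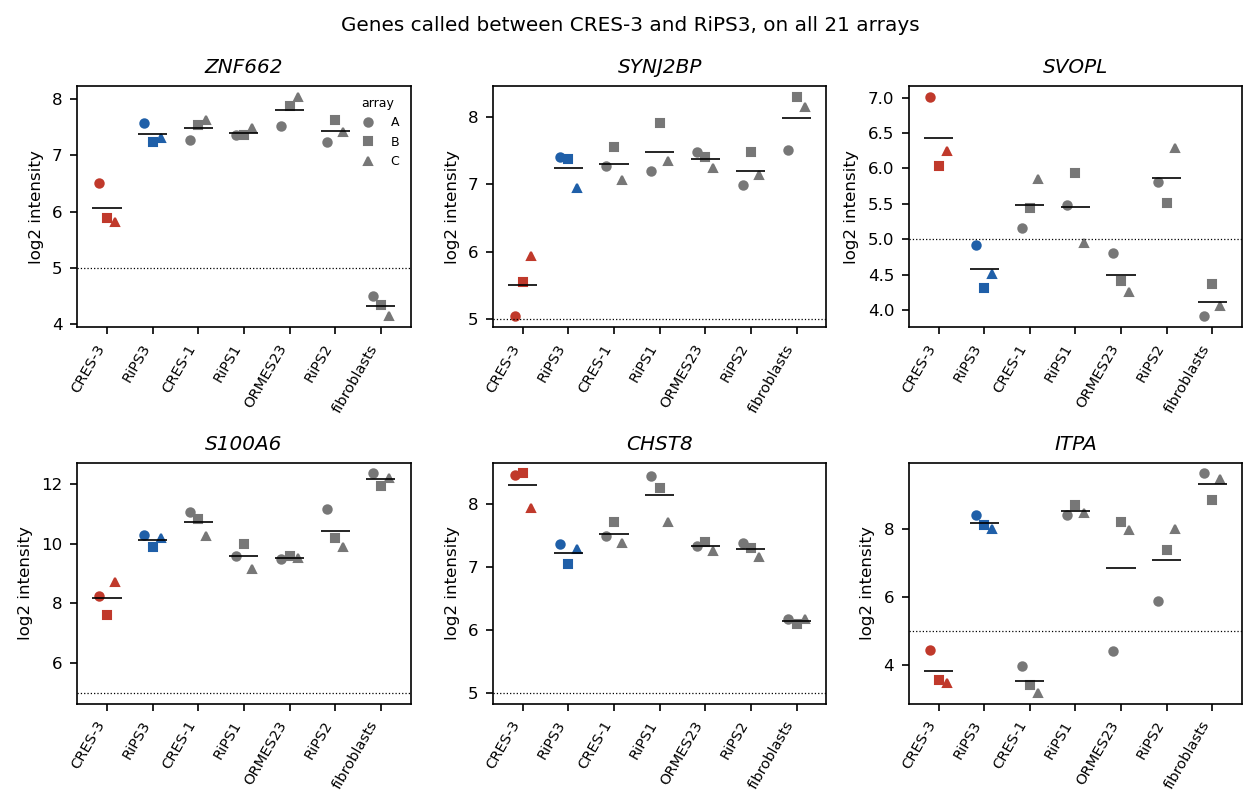
Log2 intensity of the 6 called probe sets on all 21 arrays, by line; circles, squares and triangles are arrays A, B and C, bars are line means of 3 arrays, and the dotted line is log2 5. CRES-3 (red) stands apart from all other pluripotent lines for ZNF662, SYNJ2BP and S100A6, and shares its low ITPA with CRES-1.

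How many members were called depended on single arrays. Leaving out either CRES-3 B or RiPS3 B brought it to 0, and leaving out CRES-3 A or RiPS3 C brought it to 2. It stayed at 6 when CRES-3 C was dropped and rose to 25 when RiPS3 A was. In the refits with no call, limma's unadjusted p was under 0.05 for 903 of 16819 members (CRES-3 B left out) and 962 (RiPS3 B left out). With all arrays it was 1285. With no difference at all, a share of 0.05 of the members would pass, so these counts are not read as remaining signal. Over these 6 refits and 12 other settings the log2 difference of ZNF662 ranged from -1.52 to -1.18, that of SVOPL from 1.56 to 2.23 and that of CHST8 from 0.97 to 1.24. The others moved further: ITPA ranged from -4.65 to -1.28, S100A6 from -2.21 to -1.04 and SYNJ2BP from -1.94 to 0.26. Of the 6 refits that left out 1 array, ITPA was called only in that without RiPS3 A. A fit of the 6 arrays alone called 4 members, or 0.0238%: ITPA, TMPO, GLT8D2 and TIMP2. ITPA was the only member called in both fits, with an adjusted p of 0.00135 in the smaller one.

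Without the limit on size, 12 members passed the adjusted p (0.0713%). The 6 beyond those above were shifted by less than 2-fold. ACLY, the ATP citrate lyase that makes cytosolic acetyl-CoA, read 8.95, 9.08 and 9.16 in CRES-3 and 9.52, 10.01 and 9.91 in RiPS3 (-0.75, SE 0.13, adjusted p = 0.0400). Its other 2 probe sets also read lower in CRES-3. PAM16, a subunit of the motor that imports proteins into mitochondria, was higher in CRES-3 by 0.65 (SE 0.10), and PPM1E, a protein phosphatase, by 0.79 (SE 0.14), although its other probe sets gave 0.35 and -0.04. DUSP23, a phosphatase, was lower by 0.87 (-0.87, SE 0.12), LOC718926 by the same amount (-0.87, SE 0.13), and RPL26L1, a ribosomal protein gene, by 0.63 (-0.63, SE 0.10).

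Several members of large size missed the threshold on the adjusted p. TMPO, the lamina-associated thymopoietin, read 8.82, 8.45 and 8.81 in CRES-3 and 7.06, 6.63 and 6.81 in RiPS3, a difference of 1.86 (SE 0.35, adjusted p = 0.0695). Its CRES-3 mean was the highest and its RiPS3 mean the lowest of the pluripotent lines, and all 4 of its probe sets read higher in CRES-3, the other 3 by 0.13 to 0.69. GLT8D2, a glycosyltransferase-like gene, read lower in CRES-3 with all 3 of its probe sets, by differences of -1.18 (limma adjusted p = 0.115), -1.42 and -1.09. TIMP2, an inhibitor of matrix metalloproteinases, read 7.05, 7.26 and 7.18 against 8.23, 8.26 and 8.49 (-1.17, SE 0.26, adjusted p = 0.121), but its other probe set gave -0.27. These 3 genes passed in the fit of the 6 arrays alone.

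Among the 4087 genes with at least 2 member probe sets, all probe sets pointed the same way in 2344. In 25 genes every probe set was shifted by at least log2 0.8 the same way, 6 higher and 19 lower in CRES-3. The lower ones included WLS, BMP2, CAVIN2, ITPA, GATA3, GLT8D2, ZFHX3 and MSX2, and the higher ones FEZ1, BST2, ADI1 and MECOM. FEZ1, an adaptor for kinesin transport, read 9.34, 9.31 and 8.98 in CRES-3 against 7.95, 7.88 and 8.23 in RiPS3 (1.19, SE 0.25, adjusted p = 0.101), and its other probe set gave 1.07.

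None of the 4 factors delivered to RiPS3 and none of the core pluripotency genes was called. POU5F1, which encodes OCT4, read 12.79, 12.46 and 12.33 in CRES-3 and 12.16, 11.98 and 12.29 in RiPS3. The CRES-3 arrays were higher on every array, by 0.38 on average, with a 95% interval of -0.16 to 0.93 (adjusted p = 0.841). SOX2 differed by 0.13 (-0.27 to 0.52) and MYC by -0.21 (-0.72 to 0.29). KLF4 differed most of the 4: it read 6.89, 7.46 and 6.86 in CRES-3 and 9.08, 7.96 and 7.74 in RiPS3, a difference of -1.18 (95% interval -1.93 to -0.44, adjusted p = 0.303). RiPS3 A was the highest array and the lines did not overlap. The fibroblasts averaged 8.95, above both lines; the other probe set of KLF4 gave -0.43. The probe sets cannot tell a factor's own gene from a retroviral copy that they match.

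NANOG read 8.22, 7.88 and 8.44 in CRES-3 and 8.93, 8.96 and 8.53 in RiPS3, the lowest mean of the pluripotent lines being that of CRES-3 (-0.63, interval -1.16 to -0.09, adjusted p = 0.540). Skin fibroblasts averaged 9.96 on this probe set, above all pluripotent lines, so it does not mark pluripotent cells in these data. POU5F1 and SOX2 averaged 4.14 and 4.48 in the fibroblasts. DPPA4 differed by -0.55 (-1.03 to -0.07), SALL4 by -0.29 (-0.90 to 0.33) and the DNA methyltransferase DNMT3B by 0.29 (-0.11 to 0.70). PRDM14, a repressor that keeps human embryonic stem cells undifferentiated, was the highest-shifted gene of the pluripotency list: 9.71, 9.41 and 8.72 in CRES-3 and 8.54, 7.68 and 7.74 in RiPS3, 1.30 (SE 0.30, adjusted p = 0.140). UTF1 read higher in CRES-3 by 0.65 (SE 0.14) and LIN28B by 0.43 (SE 0.13), also uncalled. Of 21 measured genes of the network, 12 read higher and 9 lower in CRES-3, with a median of 0.13 that was 0.07 without CRES-3 A and 0.04 without RiPS3 C, and 5 had an unadjusted p under 0.05. In the primed list 11 of 13 genes read higher in CRES-3, with a median of 0.12 and a range of -0.23 to 0.49, and in the naive list 4 of 9. The primed median was 0.06 without RiPS3 C, and 0.22, 0.18 and 0.19 without CRES-3 B, CRES-3 C and RiPS3 A.

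The list medians farthest from that of all members were those of early differentiation. Of 19 measured mesoderm genes, 18 read lower in CRES-3 and 1 higher, with a median of -0.71 beside 0.01 over all members, and of 19 endoderm genes 14 read lower, with a median of -0.66. None of them was called, and 5 mesoderm and 3 endoderm genes had an unadjusted p under 0.05, beside 7.64% of all members. The list means by array were 6.46, 6.71 and 7.08 for mesoderm in CRES-3 A, B and C and 7.95, 7.57 and 6.82 in RiPS3 A, B and C. For endoderm they were 7.36, 7.53 and 8.05 against 8.27, 8.55 and 7.68. CRES-3 C therefore stood above RiPS3 C on both lists, while CRES-3 A and B stood below RiPS3 A and B. The lines did not overlap in 5 of the 19 mesoderm and 2 of the 19 endoderm genes, beside 16.0% of all members. In RNA of whole colonies, fewer cells of a type and less RNA per cell cannot be told apart.

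GATA6, a transcription factor of primitive endoderm, showed this plainly: it read 6.18, 6.95 and 8.71 in CRES-3 and 8.46, 9.54 and 6.89 in RiPS3. The difference of means was -1.02 with an SE of 0.99, and the spread within each line exceeded it. SOX17 (5.63, 6.10 and 8.27 against 7.99, 8.95 and 6.42) and EOMES, an inducer of mesoderm and endoderm (6.50, 7.49 and 8.78 against 9.09, 9.64 and 7.32), followed the same order of arrays. GATA3, of trophoblast and amnion, read 5.68, 5.23 and 7.54 against 9.33, 8.59 and 6.33 (-1.94, SE 0.69, adjusted p = 0.431). In a minority of genes the lines did not overlap. MEIS2, a homeobox gene, read 5.17, 5.18 and 5.98 in CRES-3 and 7.42, 6.87 and 6.13 in RiPS3 (-1.36, SE 0.39, adjusted p = 0.266). BMP4, a ligand that drives mesoderm, read 9.13, 8.82 and 9.01 against 10.58, 9.66 and 9.93 (-1.07, SE 0.48).

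Dropping RiPS3 C moved the median of the mesoderm list to -1.05 and dropping RiPS3 A moved it to -0.44. For the endoderm list the extremes were -0.80 when RiPS3 C was dropped and -0.38 when RiPS3 B was. Both medians were negative in all 6 refits that left out 1 array. Across all members, CRES-3 C was the highest CRES-3 array for 33.5%, against 13 of 19 mesoderm and 12 of 19 endoderm genes. RiPS3 C was the lowest RiPS3 array for 39.3% of members, against 15 of 19 genes in each list. CRES-3 C was also the array with the largest 3′ to 5′ difference of actin, 2.17; the part of RNA quality in its higher values was not tested.

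**Figure D3:**
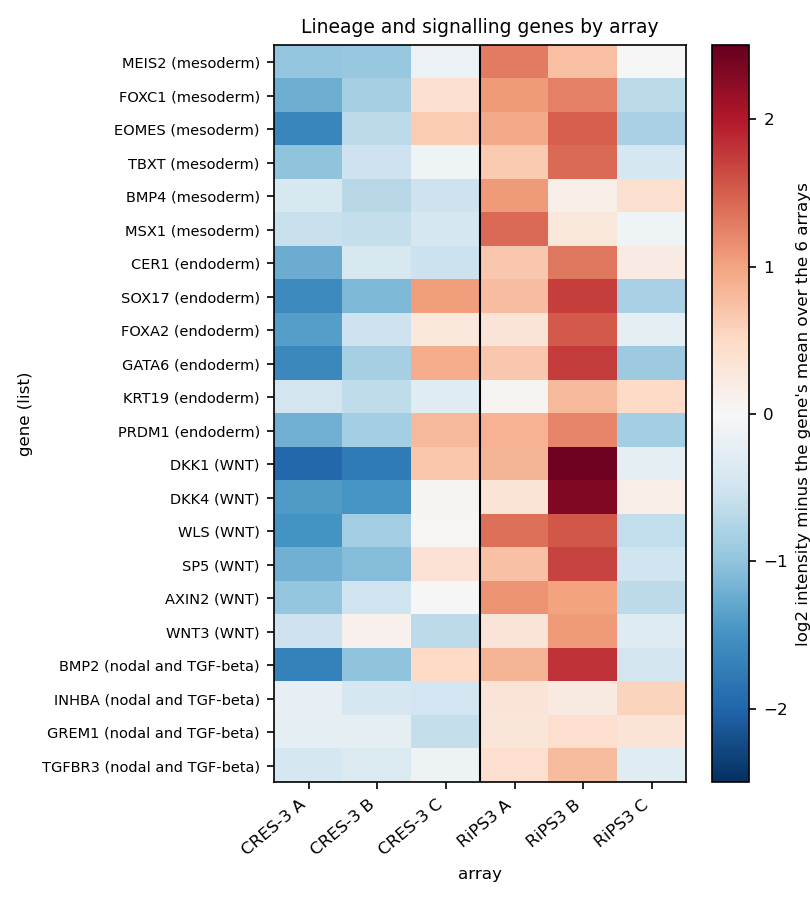
Log2 intensity of up to 6 genes with the largest difference in each of 4 lists, minus the gene's mean over the 6 arrays; columns are arrays, red is above and blue below that mean. CRES-3 A and B are low and RiPS3 A and B high for most genes, and CRES-3 C and RiPS3 C lie between them or cross over.

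Several Wnt signalling genes differed by more than log2 1. DKK1, a secreted Wnt antagonist, read 5.09, 5.28 and 7.74 in CRES-3 and 7.90, 9.49 and 6.81 in RiPS3 (-2.03, SE 0.89, adjusted p = 0.594), with CRES-3 C above RiPS3 C. DKK4, of the same family, read 4.89, 4.84 and 6.38 against 6.64, 8.62 and 6.47 and did not overlap (-1.88, SE 0.58, adjusted p = 0.305). WLS, which carries Wnt ligands to the cell surface, differed by -1.55 (SE 0.63) with 1 probe set and -1.62 (SE 0.56) with the other. The Wnt target genes SP5 and AXIN2 differed by -1.29 (SE 0.52) and -0.98 (SE 0.52). Over all 36 measured Wnt genes the median was -0.11, with 22 lower and 14 higher, and the median ran from -0.18 to -0.06 when single arrays were dropped. Differences of log2 1 or more were those of DKK1, DKK4, WLS and SP5. Of 33 nodal and TGF-beta genes 21 read lower, with a median of -0.15 that became 0.01 without RiPS3 A. BMP2 (-1.47, SE 0.79) and the antagonist CER1 (-1.45, SE 1.04) were the largest, and neither was called.

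Genes typical of fibroblasts also tended to read lower in CRES-3: 25 of 31 measured, with a median of -0.18. The other 6 read higher, the largest being THY1 at 0.49 (SE 0.30). Of the 31, 7 had an unadjusted p under 0.05, all lower, while none was called. S100A4, a calcium-binding protein of fibroblasts and moving cells, read 6.02, 5.92 and 6.59 in CRES-3 and 7.71, 7.58 and 7.25 in RiPS3 (-1.34, SE 0.36, adjusted p = 0.207). TGFBI, a matrix protein induced by TGF-beta, was under log2 5 in CRES-3 at 4.82, 4.67 and 4.75 and read 5.72, 6.91 and 5.61 in RiPS3. TWIST1 (-1.26, SE 0.44) overlapped between the lines and COL1A1, a main collagen, differed by -0.78 (SE 0.26). All 11 S100 genes measured read lower in CRES-3. S100A6 was called, S100A4 was the next largest, and the rest lay between -0.42 and -0.02. The list also held S100PBP, a binding partner of S100P and no S100 gene, at 0.20; its median over these 12 genes was -0.12, and -0.21 without RiPS3 C. Of 8 annexins, 7 read lower, with a median of -0.28 that shrank to -0.18 without CRES-3 A and to -0.09 without RiPS3 A. ANXA1 read 6.60, 7.46 and 8.04 against 9.35, 8.01 and 6.40, so its arrays overlapped widely.

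Epithelial genes read lower in CRES-3 too, in 16 of 23 measured, with a median of -0.09 that moved to -0.15 when CRES-3 A was dropped and to -0.03 when CRES-3 C was. KRT19, a keratin of simple epithelia, read 9.76, 9.58 and 9.92 in CRES-3 and 10.30, 11.03 and 10.73 in RiPS3 (-0.93, SE 0.23, adjusted p = 0.161). The tight junction gene CLDN4 read 6.83, 6.75 and 6.80 against 7.90, 7.28 and 7.54 (-0.78, SE 0.19, adjusted p = 0.147). Neither overlapped, and both were evenly low in CRES-3.

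**Figure D4:**
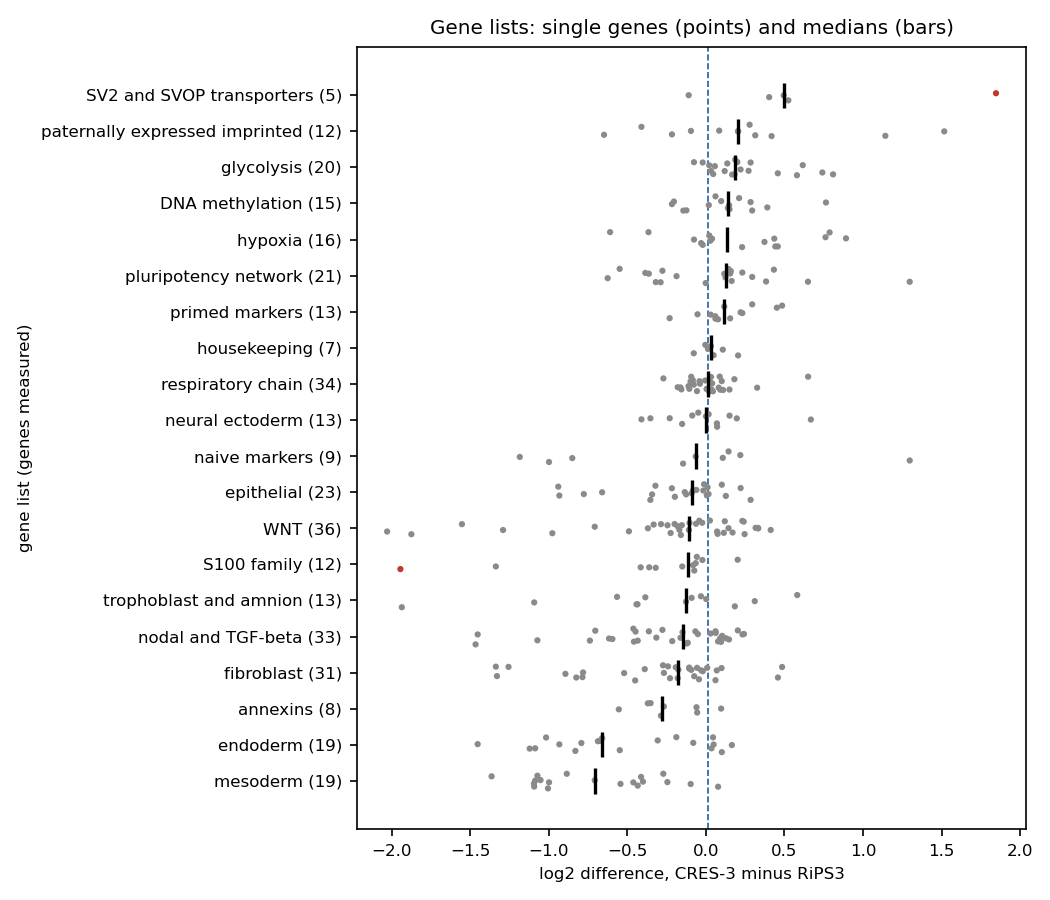
Log2 difference, CRES-3 minus RiPS3, of each measured gene in 20 lists; points are genes, red where called, black bars are list medians and the dashed line is the median of all members. The mesoderm and endoderm medians lie farthest below 0; the SV2 and SVOP list was built around the called gene SVOPL and includes it.

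Sugar metabolism read slightly higher in CRES-3. Of 20 measured glycolysis genes, 18 were higher, with a median of 0.18 that stayed between 0.16 and 0.22 whichever single array was left out, and 8 of 20 did not overlap between the lines, beside 16.0% of all members. None was called. PFKL, the liver form of phosphofructokinase, read 8.99, 8.51 and 8.50 in CRES-3 and 7.91, 7.59 and 8.07 in RiPS3 (0.81, SE 0.19, adjusted p = 0.140). HK2, which phosphorylates glucose on entry, differed by 0.58 (SE 0.25) and the glucose transporter SLC2A1 by 0.46 (SE 0.20). Genes induced by low oxygen gave a median of 0.13, which was 0.09 without CRES-3 B, 0.22 without RiPS3 B and 0.37 over the genes that reached log2 6. Higher in CRES-3 were 11 of 16, among them the collagen hydroxylase P4HA1 (0.79, SE 0.30) and the histone demethylase KDM3A (0.76, SE 0.31). DDIT4, an inhibitor of growth signalling induced by stress, read 9.40, 10.80 and 10.35 against 8.31, 9.07 and 7.76 (1.80, SE 0.66, adjusted p = 0.454). The nuclear genes of the respiratory chain stood level: 19 of 34 were higher, the median was 0.01 and 33 of the 34 intervals lay between -1 and 1.

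Imprinted genes, which are read from 1 parental copy, gave 2 large values among 12 measured genes of paternal expression. MEST, an imprinted hydrolase-like gene, read 10.52, 10.47 and 10.58 in CRES-3 and 9.68, 9.04 and 8.30 in RiPS3 (1.52, SE 0.46, adjusted p = 0.305): CRES-3 was even and RiPS3 low and spread. MAGEL2 read 7.67, 7.94 and 7.44 against 6.64, 6.61 and 6.38 (1.14, SE 0.35, adjusted p = 0.305). The median was 0.21 over the genes of paternal expression and 0.01 over 14 genes of maternal expression, of which none reached log2 1. Of 15 genes of DNA methylation and its removal, 11 read higher in CRES-3, with a median of 0.14 that was 0.07 without CRES-3 C and 0.08 without RiPS3 C; TET1, which oxidizes methylcytosine, read 10.92, 10.97 and 10.81 against 9.86, 10.55 and 9.995 (0.76, SE 0.30). The 23 polycomb genes all had intervals between -1 and 1.

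X inactivation, named in the title of the series, is the silencing of 1 X chromosome in female cells. Both lines are labelled female. None of the 606 X-linked members was called. Their median difference was 0.02 beside 0.01 for 16006 autosomal members, and 41 of them, or 6.77%, had an unadjusted p under 0.05 beside 7.67% of autosomal members. They ran from -1.12 to 0.72. UPRT had the smallest p among them, at 9.67, 9.68 and 9.60 against 8.69, 9.03 and 9.06 (0.72, SE 0.14, adjusted p = 0.0774). The 21 measured genes of the list known to escape inactivation had a median of -0.01. The gene of the silencing RNA itself was not among the probe sets with 1 symbol and was not analysed here.

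A few of the largest differences rested on a single array or on uneven arrays of RiPS3. FOS, an immediate early transcription factor, read 6.23, 6.06 and 6.41 in CRES-3 and 10.30, 7.66 and 8.77 in RiPS3 (-2.68, SE 0.75, adjusted p = 0.240). Other immediate early genes were high on RiPS3 A alone: JUNB read 8.20 there against 6.17 to 6.67 on the other 5 arrays, and EGR2 10.35 against 6.95 to 7.68. AKAP7, an anchor of protein kinase A, read 7.76, 7.69 and 7.62 in CRES-3 and 7.39, 5.02 and 4.30 in RiPS3 (2.13, SE 0.54, adjusted p = 0.164), and it passed at an adjusted p of 0.00289 without RiPS3 A. PYROXD1 read 9.44 on RiPS3 A and 4.70 to 5.41 on the other 5 arrays, so its difference of -1.80 had an SE of 1.27.

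The male pair, CRES-1 and RiPS1, shares no array with the female one and offers the same routes. There 327 members were called (1.94%), 67 higher (0.398%) and 260 lower (1.55%) in CRES-1. The differences of the female and male pairs, cloned minus induced, had the same sign in 41.3% of members, with a correlation of -0.23 across the 16819 members, which are not independent replicates. Called in both pairs were 2 members, ITPA and S100A6. ITPA was lower in both cloned lines, by log2 differences of -4.35 and -5.002 with the called probe set and -1.28 and -1.43 with the brighter one. The test of the difference between the pairs did not call the first of these probe sets (limma adjusted p = 0.762). S100A6 was lower in CRES-3 but higher in CRES-1, by 1.14, and the difference between the pairs was -3.08 (SE 0.44, adjusted p = 0.000991).

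The difference between the pairs was itself called in 469 members (2.79%), 341 where the female difference was the more positive (2.03%) and 128 where it was the more negative (0.761%). These included 5 of the 6 called genes, all but ITPA. Those 6 were chosen by the female difference, which is part of the difference between the pairs, so this count is no separate support. SVOPL differed by 0.03 in the male pair, ZNF662 by 0.07, SYNJ2BP by -0.19 and CHST8 by -0.61, so each of these shifts was smaller or turned in the male lines. The mesoderm list had a median of 0.29 in the male pair against -0.71 in the female one, and glycolysis -0.25 against 0.18. X-linked members had a male median of -0.15, and 62 of 606 were called there (10.2%), beside a median of -0.04 and 259 calls among 16006 autosomal members (1.62%).

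**Figure D5:**
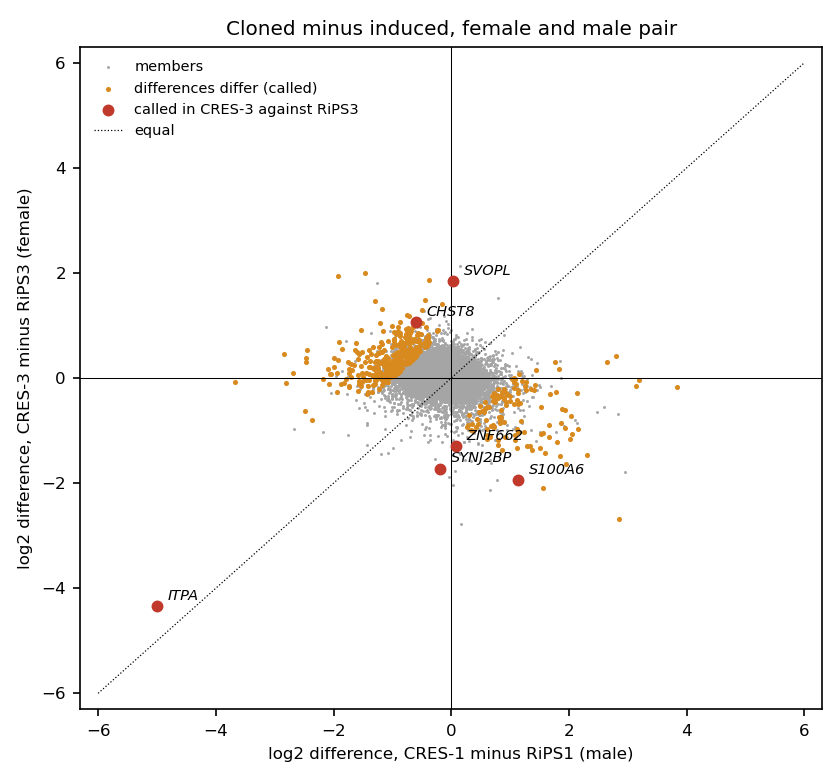
Log2 difference of cloned minus induced line in the male pair (horizontal axis) and the female pair (vertical axis) for all 16819 members; orange points are the 469 members whose differences were called unequal and red points the 6 called between CRES-3 and RiPS3. ITPA is low in both pairs. The orange points lie mostly at upper left and lower right, where differences of opposite sign make the difference between the pairs large.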

How the data were processed

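RNA of 7 lines was labelled by the Affymetrix one-cycle method, per the labels' protocols. Each deposited value is a log2 intensity, made by the authors with RMA, per the submitters' processing notes. The version of RMA was not stated there. RMA fits all arrays together and compresses low signals, and the number of arrays limits precision. Symbols came from GEO's platform annotation, updated by Entrez ID through the RefSeq table of assembly T2T-MMU8v2.0 (16615 of 16819 members matched); it gave chromosomes, and no coordinates are printed. The 361 probe sets with several symbols and 27535 with none are no members.

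The fit used limma 3.58.1 (R 4.3.3): 1 mean per line over 21 arrays, 14 residual degrees of freedom, empirical Bayes, two-sided p-values, Benjamini-Hochberg over members. The fit was also run on simulated data with independent noise and 1 SD per probe set for all lines. That setting lacks the larger spread within RiPS3, and no result of it is used here. Fold changes from a line under log2 5 are bounds counted from log2 5. In lists each gene is read from its brightest member probe set over the 6 arrays. Named genes are all called members, 12 of smallest p in each direction among non-overlapping ones averaging at least log2 6 in the brighter line, 10 of largest difference in each direction, up to 6 per list, and the core factors; TIMP2, GLT8D2, CAVIN2, ZFHX3, MSX2, ADI1 and MECOM were named after their values were seen. Members and lists were chosen with earlier results of these data known. Deviations of same-letter arrays of the lines had correlations of 0.05, -0.09 and -0.40 for A, B and C. Arrays of different letters gave -0.24 to 0.33. With 3 arrays a line this cannot decide whether letters pair arrays, and the main fit used no block on the letter.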

Additional observations from a re-analysis of the deposited data

Results flagged for a closer look

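Probe sets without a gene symbol, left out above, were tested the same way. Of 10416, 32 were called between CRES-3 and RiPS3 (0.307%), 24 lower and 8 higher in CRES-3, beside 0.0357% of members. The 3 lowest log2 differences were -6.79, -6.53 and -5.97, the first of them at a probe set of the mitochondrion by its identifier. Of 6 probe sets whose array identifiers begin with MmuMitochon, 3 were called. MmuMitochon.10.1.S1_s_at read 7.41, 6.41 and 7.36 in CRES-3 and 13.82, 13.79 and 13.93 in RiPS3, a log2 difference of -6.79 (SE 0.25, limma adjusted p = 2.8e-12). It read 13.51 to 13.92 on average in ORMES23, CRES-1, RiPS1 and the fibroblasts and 7.69 in RiPS2. MmuMitochon.3.1.S1_s_at differed by -3.32 (SE 0.20) and MmuMitochon.4.1.S1_at by -1.33 (SE 0.18). MmuMitochon.6.1.S1_s_at differed by -1.34 (adjusted p = 0.0584), MmuMitochon.12.1.S1_s_at by -0.03 and MmuMitochon.13.1.S1_at by -0.69, all uncalled. In 13 of the 32, every CRES-3 array and the mean of RiPS2 lay below every array of the other 4 pluripotent lines. These 13 were sought only among the 24 already called lower in CRES-3, so their place below RiPS3 was partly fixed by that call. The share of this pattern over all 10416 was not counted. The male pair differed by 0.41, -0.00 and -0.20 at the 3 called mitochondrial probe sets. Less RNA and a poorer match of the probes to the RNA cannot be told apart in these values.

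In 3 of the 32, chosen after their values were seen, every array of ORMES23, CRES-1 and CRES-3 was above every array of RiPS1, RiPS2 and RiPS3. This separation was sought only among the 32 called probe sets, and its share over all 10416 was not counted. MmugDNA.37833.1.S1_at averaged 8.12 in CRES-3, 6.93 in ORMES23 and 6.74 in CRES-1, against 3.21, 3.55 and 4.00 in RiPS3, RiPS1 and RiPS2 and 4.14 in the fibroblasts. RiPS3 averaged under log2 5 on all 3, so the differences are bounds: CRES-3 was at least 8.69-fold higher there (limma adjusted p = 2.4e-08), at least 13.6-fold at MmugDNA.41812.1.S1_at and at least 4.02-fold at MmugDNA.27713.1.S1_at. These 3 were also called in the male pair, but the choice by separated arrays used the male arrays too, so this is no further support. Their genes are not named in the annotation used.

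The difference between the female and the male pair, cloned minus induced, was called in 469 members, and the following named genes were among them. Named genes other than the core factors were picked by the size or p of the female difference, which enters this test. Their presence here is therefore no separate support. Values are the female minus the male log2 difference. The most negative were FOS at -5.53, SCD5 at -3.59, CDKN2A at -3.12, S100A6 at -3.08, SP5 at -2.64, BMP4 at -2.60, S100A4 at -2.46 and PEG3 at -2.38. MEIS2 stood at -2.23, TBXT at -2.16, JUNB at -1.996, KLF4 at -1.97, ANP32B at -1.58, SYNJ2BP at -1.54 and ZNF662 at -1.38. IRS1 (-1.28), DUSP23 (-1.22), CLDN4 (-1.21), HOXC6 (-1.21), KRT19 (-1.20) and DPPA4 (-1.19) were smaller. On the positive side ZNF534 gave 3.86, MAP6D1 3.47, HOXD1 2.78, LOC712263 2.76, TMPO 2.24 and BST2 1.999. FEZ1 gave 1.94, TCERG1L 1.93, SVOPL 1.81, IGFBP2 1.80, PRDM14 1.79, CHST8 1.67, MEIOB 1.67 and LOC701346 1.56. UPRT (1.27), PFKL (1.21), RNPEP (1.19), OFD1 (1.17) and ZNF462 (1.15) were the smallest. Groups of 3 arrays were not tested for single outlying arrays.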

How the results depend on the processing

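The count of 6 called members became 15 after quantile normalization, 47 with array weights, 12 with no limit on size, and 10 in a fit of the 18 pluripotent arrays, a setting added after seeing the data. Leaving out single arrays gave 0 to 25. With the replicate letter as a block it was 9 over all arrays and 4 over the 6 alone. Whether the letters pair arrays could not be decided. The listed genes called numbered 3, namely SVOPL, CHST8 and S100A6. The lists were written with earlier results of these data known, so this count is no separate support. Its share of all listed genes was not counted, beside 0.0357% of members called. The count of 3 became 0 with the 6 arrays alone, 8 with array weights, and 0 to 5 without single arrays, all added after seeing the data. The 469 calls of the difference between pairs, among 16819 members, became 876 with array weights and 283 to 419 without single arrays. With 1 probe set a gene they became 308, but only 10408 probe sets were tested there. That lower count is therefore not read as sensitivity to the processing. SYNJ2BP reversed to 0.26 when read from its brighter probe set, the only change of sign among the 6 called genes. Changes of sign in uncalled named genes were not counted. The cause of the other moves was not tested. The share of intervals between -1 and 1, the X-linked median and the count of 0 called core factors kept their values within the limits set. Signals under log2 5 limit what dim probe sets can show.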
